A study of Mus musculus with 2 samples.

Results

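The genes of MHC class I and the immunoproteasome were studied through 10 members, chosen by name: the heavy chains H2-K1 and H2-D1, beta-2-microglobulin (B2m), the transporter subunits Tap1 and Tap2, tapasin (Tapbp), the immunoproteasome subunits Psmb8, Psmb9 and Psmb10, and the proteasome activator subunit Psme1. Through the accessions in the scanner files, 9 of the 10 had a probe on the array, with 14 probes in 32 spots, out of 41174 probes. No probe was matched to H2-D1, whose expression was not analysed here. All 9 genes with a probe were detected, among 13899 detected genes.

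MHC class I molecules show fragments of the cell's own proteins to CD8 T cells and natural killer cells. The proteasome cuts the fragments, the TAP transporter moves them into the endoplasmic reticulum, tapasin holds an empty class I molecule beside TAP, and the loaded heavy chain leaves for the surface together with beta-2-microglobulin. Interferon gamma raises most of these genes, and it swaps the 3 catalytic subunits of the standard proteasome for those of the immunoproteasome. Leukocytes express the pathway strongly, and epithelium expresses it at a lower level until it is stimulated.

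Expression in the ventral prostate of mice at 6 months of age was measured on 2 Agilent whole mouse genome arrays of 2 colours. One pool held RNA of 6 mice with the ARR2PB-miR32 transgene, and the other held RNA of 6 wild-type mice. All were of the FVB/N strain, which the labels also spell FBV/N, and both pools were labelled from 100 ng of total RNA. ARR2PB is a probasin-derived promoter that acts in the androgen-responsive epithelium of the prostate rather than in its leukocytes or stroma. The level of miR-32 itself was not analysed here. The transgenic pool was in Cy3 on array 1 and in Cy5 on array 2. Both arrays carried the same 2 pools, which leaves 1 sample for each genotype, and no replicate check or p-value stands behind the differences. Ratios are log2 of transgenic over wild type, given as the mean ± SD of the 2 technical arrays, and the SD leaves out the spread between mice. The fold rule called a gene lower or higher where the mean difference reached 2-fold (1 on the log2 scale) and both arrays showed 1.5-fold or more the same way.

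Transcripts of the prostate epithelium were present in both pools. Of 11 luminal markers 11 were detected and 0 passed the fold rule. Their median log2 ratio was 0.14, or 0.31 with Feature Extraction's processed ratios. On both arrays 6 of the 11 were above 0 and 1 was below 0, beside 24.6% and 27.3% of all detected genes. Probasin (Pbsn), the secreted protein whose promoter the transgene borrows, had normalized log2 levels of 15.40 and 15.78 in the transgenic pool on arrays 1 and 2, against 15.73 and 15.41 in the wild-type pool, so the pools overlapped. Of 6 genes of ventral prostate secretion, Pbsn included, 6 were detected, 3 were called lower and 1 higher, so Pbsn does not stand for the list. The 3 lower were Spink1 at -5.88 ± 0.21, Sbp at -1.35 ± 0.55 and Sbpl at -1.04 ± 0.38. Spink8 was higher at 2.48 ± 0.01. Of all detected genes, 3.53% were called lower and 1.09% higher. Across these genes, as a description, Pearson's r between the ratios of array 1 and array 2 was 0.513, and with Feature Extraction's processed ratios it was 0.747.

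The immunoproteasome subunits Psmb8 and Psmb9 and the heavy chain H2-K1 were between 2.86-fold and 3.18-fold lower in the transgenic pool by their brightest probes. B2m, Psmb10, Tap1 and Tap2 lay below wild type by less than 2-fold, while Tapbp and Psme1 stood within 0.2 of 0 on the log2 scale. Of the 9 detected members 3 were called lower and 0 higher, beside the 3.53% of all genes called lower. The median log2 ratio of the members was -0.84, against 0.01 over all detected genes. On both arrays 8 of the 9 members were below 0, which held for 27.3% of all genes, and 0 members were above 0 on both, which held for 24.6%. At a mean of 1.5-fold, with the same sign on both arrays, 7 of the 9 members were lower, beside 7.75% of all genes. The levels of the pools did not overlap for 8 of 9 members, against 24.3% of all genes with a lower transgenic level and no overlap. Beside these values, 9 of 12 pan-leukocyte markers were also called lower, of which 5 cleared the background in the transgenic pool on both arrays. In RNA of a whole tissue, fewer cells of a type and less RNA per cell cannot be told apart.

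**Figure D1:**
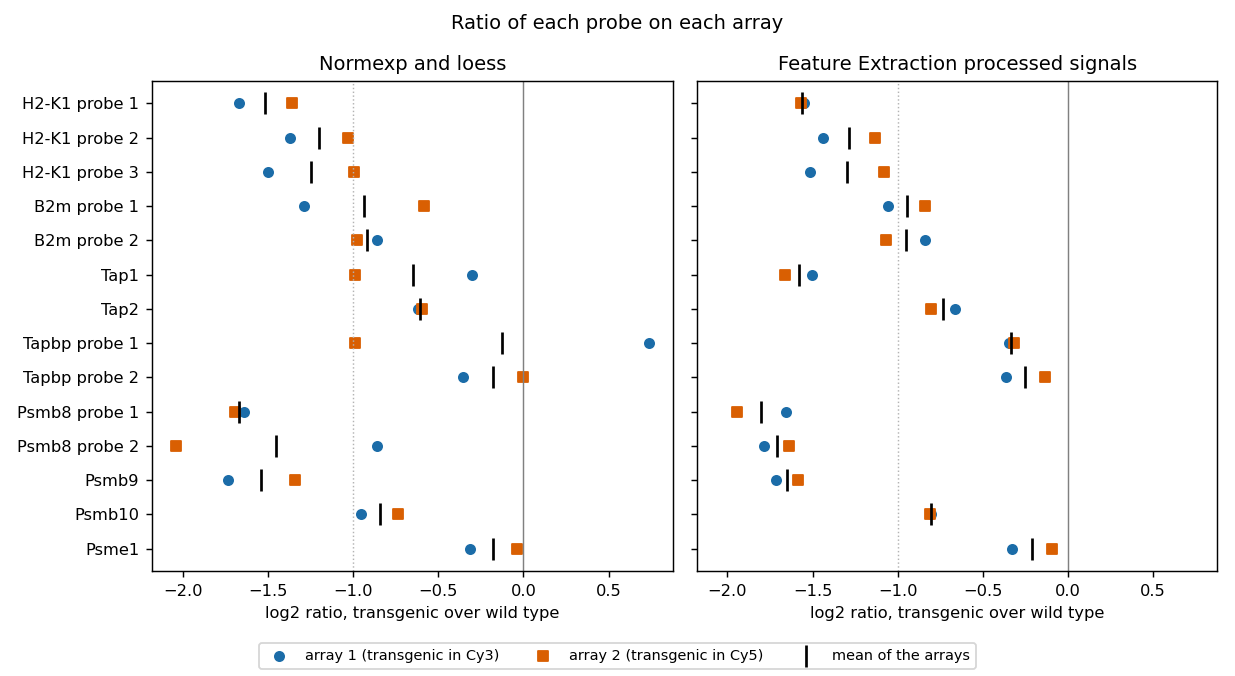
Log2 ratio of transgenic over wild type for the 14 probes of the 9 measured members, with one point for each array and a bar for their mean; the dotted line marks a ratio of -1. On the left are ratios after normexp and loess, and on the right those of Feature Extraction's processed signals, where all 14 probes lie below 0 on both arrays.

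The stretches of promoter printed here are shown because they lie before the starts of the members with the lowest ratios and of their partner chains. The sequences are RefSeq's for GRCm38.p6, from the reference strain C57BL/6J, while FVB mice carry another haplotype of the H2 complex (q in place of b). Capitals mark matches, on either strand, to 4 motifs: one like the interferon-stimulated response element (GAAA, any 2 bases, GAAA), one like the interferon gamma-activated site (TTC, any 3 bases, GAA), CCAAT, which reads ATTGG when on the opposite strand, and the cyclic AMP response element-like TGACG, which then reads CGTCA. The H2-K1 stretch is chr17:34000348-34000597 on the minus strand, B2m is chr2:122147437-122147686 on the plus strand and Psmb8 is chr17:34197945-34198194 on the plus strand, each the 250 bases before the start. The Psmb9 stretch, chr17:34187331-34187555 on the minus strand, is the whole of the 225 bases between the start of Psmb9 and that of Tap1, which are transcribed away from each other.
H2-K1: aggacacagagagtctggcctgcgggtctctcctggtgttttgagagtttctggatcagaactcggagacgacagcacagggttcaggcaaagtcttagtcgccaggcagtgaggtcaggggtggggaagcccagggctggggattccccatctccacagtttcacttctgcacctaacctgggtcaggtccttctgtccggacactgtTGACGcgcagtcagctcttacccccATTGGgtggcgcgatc
B2m: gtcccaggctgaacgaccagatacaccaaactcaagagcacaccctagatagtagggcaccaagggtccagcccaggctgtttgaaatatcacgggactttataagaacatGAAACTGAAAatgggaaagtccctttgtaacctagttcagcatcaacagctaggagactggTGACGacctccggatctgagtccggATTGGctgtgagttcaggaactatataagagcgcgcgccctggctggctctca
Psmb9: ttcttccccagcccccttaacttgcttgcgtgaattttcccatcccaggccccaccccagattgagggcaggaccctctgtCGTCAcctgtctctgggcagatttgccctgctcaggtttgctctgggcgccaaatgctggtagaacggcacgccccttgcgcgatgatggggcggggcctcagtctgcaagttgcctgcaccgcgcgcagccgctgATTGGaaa
Psmb8: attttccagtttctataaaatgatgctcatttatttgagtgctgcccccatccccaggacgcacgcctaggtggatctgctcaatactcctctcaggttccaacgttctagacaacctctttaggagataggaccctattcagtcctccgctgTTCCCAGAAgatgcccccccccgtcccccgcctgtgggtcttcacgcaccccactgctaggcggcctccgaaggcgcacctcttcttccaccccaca

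In the H2-K1 stretch TGACG began 41 bases and ATTGG 16 bases before the start used here. From another annotated start of H2-K1 the same matches began 55 and 30 bases before. In the B2m stretch TGACG began 78 and ATTGG 53 bases before its start. B2m also had a match to the interferon-stimulated response element-like motif, beginning 139 bases before its start. The gamma-activated site-like match began 97 bases before the start of Psmb8, and its letters match on both strands. Motifs were also counted over windows of 300 bases (250 before to 50 after a start). The 9 members with a window include H2-D1 and leave out Tap2. CCAAT was held by 6 and TGACG by 5 of them, where 37.4% and 20.8% of all 32851 windows hold them. These measures are unlike, since members were counted as genes and the 32851 windows belong to 27025 genes, some with several windows. The windows of Psmb9 and Tap1 overlap, so they share their CCAAT and their TGACG. The response element-like motif was in the windows of B2m and Psme1 and in 3.44% of all windows, and the gamma-activated site-like motif was in that of Psmb8 and in 8.30% of all windows. None of the matches shown overlapped a match to another motif, and a match describes letters, not a bound site. H2-K1 and B2m have TGACG and then ATTGG in their stretches, and their log2 ratios were -1.51 and -0.94. The Psmb9 stretch, at a ratio of -1.54, has these 2 motifs in that order too, with TGACG on the opposite strand. Whether the motifs go with the ratios was not tested. Psme1, with the response element-like motif beginning 9 bases after its start, had a ratio of -0.18.

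H2-K1 is a classical class I heavy chain, present on nearly all nucleated cells. Its brightest probe, printed as 10 spots, had normalized log2 levels of 14.13 and 14.35 in the transgenic pool on arrays 1 and 2, against 15.80 and 15.71 in the wild-type pool. The pools did not overlap, and the ratio was -1.51 ± 0.22, or 2.86-fold lower. A dimmer probe gave -1.20 ± 0.24, with levels of 11.15 and 11.22 in the transgenic pool and 12.52 and 12.25 in the wild-type pool. The other dimmer probe gave -1.25 ± 0.36, with 10.80 and 10.92 in the transgenic pool and 12.29 and 11.91 in the wild-type pool. The 3 probes thus had the same direction on each array, and each was more than 2-fold lower in the mean. Class I heavy chains have close paralogs, and the letters of the probes were not used here. Signal shared between family members was not tested for.

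B2m encodes beta-2-microglobulin, the invariant light chain of all class I molecules. Its brighter probe had log2 levels of 15.90 and 16.16 in the transgenic pool, against 17.19 and 16.74 in the wild-type pool. The pools did not overlap, and the ratio was -0.94 ± 0.50, or 1.91-fold lower. The second probe, printed as 10 spots, had levels of 15.13 and 15.04 in the transgenic pool and 15.99 and 16.01 in the wild-type pool, a ratio of -0.92 ± 0.08. Both probes fell short of the 2-fold rule by little. B2m was called lower in 3 of 12 alternatives. These were the deposited value table (3.45% of its genes called lower), array 1 alone at 2-fold (4.31%) and a mean of 1.5-fold (7.75%). The deposited values are the processed ratios with a shift for each array, and with the processed ratios themselves B2m stood at -0.947 and was not called. The B2m ratio lay above that of H2-K1 by 0.38 on array 1 and 0.78 on array 2, a mean of 0.58 ± 0.28.

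The spots printed 10 times show the error within an array. The 9 usable spots of the H2-K1 probe lay between -1.92 and -1.28 on array 1 and between -1.69 and -1.17 on array 2. The 10 usable B2m spots lay between -1.42 and 0.09 on array 1, and the 8 on array 2 lay between -1.65 and -0.62. The B2m ratios went with position on the array: the highest spot of array 1 and the lowest of array 2 were the same spot, in row 502 of 532. Feature Extraction raised the red signal by a median factor of 3.61 in rows 1 to 133 and 7.10 in rows 400 to 532 on array 1, and by 4.03 and 6.25 on array 2. The green signal was raised by 1.68 and 1.79 on array 1 and by 1.22 and 1.34 on array 2. In the ratios of those processed signals, the B2m spots lay between -1.002 and -0.51 on array 1 and between -1.48 and -0.89 on array 2. Over the 14 member probes the median SD between arrays was 0.24 after normexp and loess, 0.18 with the trend over rows and columns removed from those ratios and 0.13 with the processed signals. With the trend removed, the brighter Tapbp probe stood at 0.51 on array 1 and -0.88 on array 2, and Tap1 stood at -0.53 and -0.88.

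**Figure D2:**
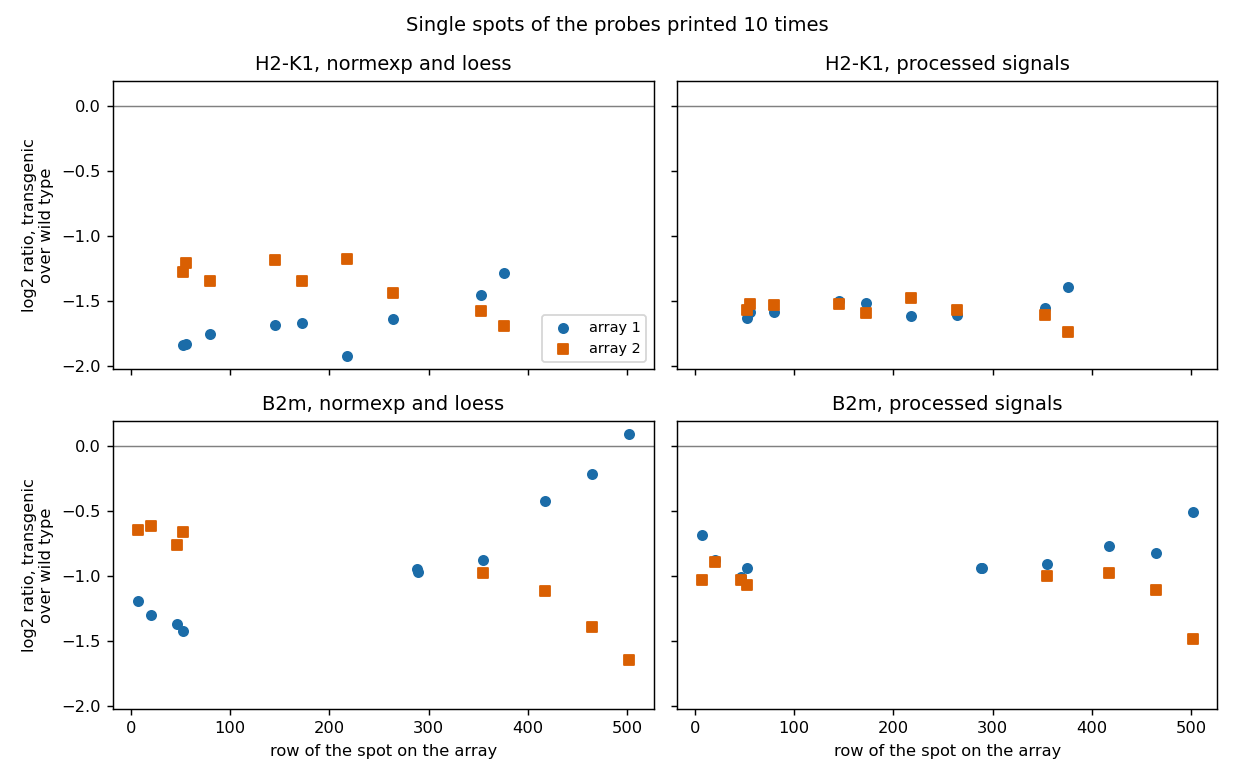
Log2 ratio of transgenic over wild type for each usable spot of the H2-K1 and B2m probes printed 10 times, against the row of the spot on the array. With normexp and loess (left) the arrays lie farthest apart at row 502 for B2m (0.09 and -1.65) and at row 218 for H2-K1 (-1.92 and -1.17), and with the processed signals (right) the spots of all rows lie below 0.

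Of 23 other class I heavy chain genes 15 had a matched probe and 11 were detected. Of these 7 were called lower and 0 higher, beside 3.53% and 1.09% of all genes, with a median log2 ratio of -1.23. Signal shared between these close paralogs was not tested for, so the 7 calls need not be 7 separate changes. The lowest was H2-M3, a nonclassical chain that presents formylated peptides, at -1.47 ± 0.25, where its transgenic signal cleared the background on 1 array of 2. With the processed signals H2-M3 stood at -2.18. H2-T23, the Qa-1 chain read by CD94/NKG2 receptors, had levels of 12.56 and 12.97 in the transgenic pool and 14.44 and 13.86 in the wild-type pool, a ratio of -1.39 ± 0.70. The Qa chains H2-Q2 (-1.33 ± 0.78), H2-Q4 (-1.28 ± 0.09), H2-Q7 (-1.25 ± 0.33) and H2-Q10 (-1.18 ± 0.30) were called lower, as was H2-Bl at -1.23 ± 0.15. Other probes of H2-Q10 gave between -1.07 and -0.0018, and another of H2-Q2 gave -0.82. The highest ratio in the list was that of H2-T24, at -0.05 ± 0.17. Of the 6 detected class I-like molecules, which share the fold without showing peptides from the proteasome, 0 passed the rule in either direction. They ran from the neonatal Fc receptor Fcgrt at -0.65 ± 0.34 to the iron regulator Hfe at 0.53 ± 0.53.

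Tap1 and Tap2 are the subunits of the peptide transporter. Tap1 had log2 levels of 6.98 and 6.83 in the transgenic pool, against 7.28 and 7.82 in the wild-type pool. The pools did not overlap, and the ratio was -0.65 ± 0.49, which did not pass the rule. Its transgenic signal cleared the background on 1 array of 2, and on array 2 the raw spot was 1.14 times as bright as its surroundings in that channel. The value depended on the processing: with Feature Extraction's processed signals Tap1 stood at -1.505 on array 1 and -1.66 on array 2 and was called lower, beside 6.75% of all genes. Those processed signals were 148 and 121 in the transgenic pool, against 421 and 382 in the wild-type pool. The Tap1 spot lies in row 531 of 532.

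Tap2 had levels of 8.48 and 8.52 in the transgenic pool, against 9.10 and 9.11 in the wild-type pool. The pools did not overlap, and the arrays gave nearly the same ratio of -0.61 ± 0.02, or 1.52-fold lower. Tap1 minus Tap2 came to -0.04 ± 0.51 in log2 ratio after normexp and loess and to -0.85 with the processed signals, so the order of the subunits was not settled.

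Tapbp encodes tapasin, which bridges TAP and the class I molecule during loading. Its brighter probe had log2 levels of 11.48 and 10.70 in the transgenic pool, against 10.74 and 11.69 in the wild-type pool, so the pools overlapped and the arrays disagreed in sign. The ratio of -0.13 ± 1.22 came from a spot that is also in row 531, and with processed signals it was -0.34 on array 1 and -0.32 on array 2. The second probe, matched to another transcript of the gene, had levels of 7.96 and 8.23 in the transgenic pool and 8.32 and 8.24 in the wild-type pool, a ratio of -0.18 ± 0.25. The pools of this probe did not overlap, but array 2 levels were nearly the same. Tapbp passed the rule under none of the 12 processing alternatives.

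**Figure D3:**
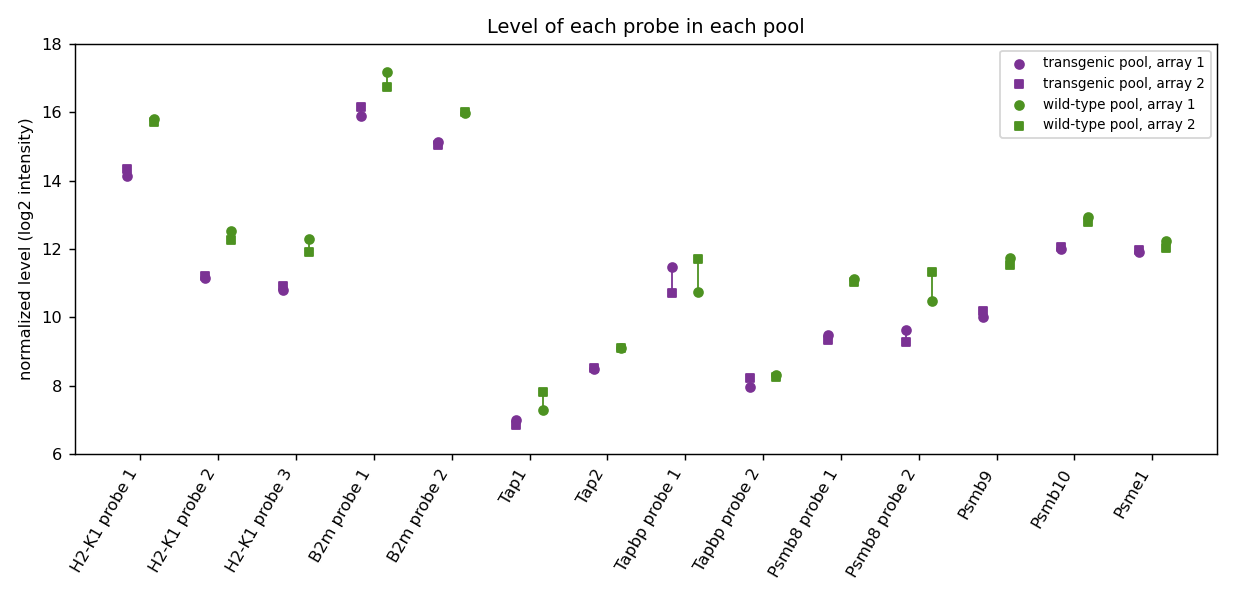
Normalized log2 level of each member probe in the transgenic pool (left of each pair) and the wild-type pool (right), with one point for each array. The pools overlap only for probe 1 of Tapbp, at 11.48 and 10.70 in the transgenic pool against 10.74 and 11.69 in the wild-type pool; heights of different probes are not comparable.

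Psmb8 encodes LMP7, the immunoproteasome subunit with chymotrypsin-like activity, and had the lowest ratio of the 9 members. Its brighter probe had log2 levels of 9.47 and 9.33 in the transgenic pool, against 11.11 and 11.03 in the wild-type pool. The pools did not overlap, and the ratio was -1.67 ± 0.04, or 3.18-fold lower, with 1.60% of all detected genes lower still. A second probe had levels of 9.61 and 9.27 in the transgenic pool, against 10.47 and 11.31 in the wild-type pool, a ratio of -1.45 ± 0.84. That probe lies in row 454, and its processed signals gave -1.79 on array 1 and -1.64 on array 2.

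Psmb9 encodes LMP2, the other catalytic subunit whose gene lies inside the MHC. Its levels were 10.01 and 10.19 in the transgenic pool, against 11.74 and 11.53 in the wild-type pool, with no overlap. The ratio was -1.54 ± 0.28, or 2.91-fold lower. It differed from that of Psmb8 by -0.13 ± 0.31 (Psmb8 minus Psmb9), less than the spread of the technical arrays.

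Psmb10 encodes MECL-1, which carries trypsin-like activity and whose gene is on chromosome 8, outside the MHC. Its levels were 11.99 and 12.06 in the transgenic pool, against 12.95 and 12.79 in the wild-type pool, with no overlap. The ratio of -0.84 ± 0.16, or 1.80-fold lower, did not pass the rule. Psmb8 minus Psmb10 was -0.69 on array 1 and -0.96 on array 2, and its mean lay between -0.99 and -0.69 over the 12 processing alternatives.

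Of the 3 subunits that these replace, 0 passed the rule. Psmb5, the counterpart of Psmb8, had levels of 11.92 and 11.68 in the transgenic pool and 11.62 and 11.70 in the wild-type pool, which overlapped, at a ratio of 0.14 ± 0.22. Psmb6, the counterpart of Psmb9, stood at -0.03 ± 0.46, and Psmb7, that of Psmb10, at -0.07 ± 0.18. The difference in log2 ratio between the immunoproteasome subunit and its counterpart was -1.94 on array 1 and -1.68 on array 2 for Psmb8 minus Psmb5. It was -2.04 and -0.99 for Psmb9 minus Psmb6, and -0.76 and -0.80 for Psmb10 minus Psmb7. These differences were below 0 under each of the 12 processing alternatives, single arrays included. The alternatives of fold rule and detection left their values as they were. The ratio of Psmb8 to Psmb5 transcripts was thus 3.51-fold lower in the transgenic pool, that of Psmb9 to Psmb6 2.86-fold lower and that of Psmb10 to Psmb7 1.72-fold lower.

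The medians of the other core and regulator subunits were near 0. Of 11 other subunits of the 20S core 0 passed the rule, with a median of -0.06. They ran from Psma4 at -0.15 ± 0.33 to Psmb2 at 0.18 ± 0.68. Of 18 subunits of the 19S regulator 0 passed, with a median of -0.03, from Psmd1 at -0.26 ± 0.51 to Adrm1 at 0.41 ± 0.99. The arrays disagreed in sign for Adrm1, at -0.29 on array 1 and 1.11 on array 2, and its other probe gave -0.08.

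Psme1 and Psme2 encode the alpha and beta chains of the PA28 activator, which opens the core and is induced by interferon gamma. Psme1 had levels of 11.90 and 11.98 in the transgenic pool, against 12.22 and 12.01 in the wild-type pool. The highest transgenic level lay just below the lowest wild-type level, and the ratio was -0.18 ± 0.20. Psme2 had levels of 12.31 and 12.42 in the transgenic pool, against 13.01 and 13.20 in the wild-type pool, with no overlap and a ratio of -0.74 ± 0.06. Psme1 minus Psme2 was 0.38 on array 1 and 0.74 on array 2, so the chains of the same ring did not show the same ratio. Psme3, the nuclear activator PA28 gamma, had levels of 11.11 and 11.71 in the transgenic pool and 10.54 and 9.72 in the wild-type pool. Its ratio of 1.28 ± 1.01 missed the rule because array 1 gave 0.57, just under 1.5-fold. Among the 9 activators and assembly factors other than Psme1, 0 passed the rule, and the median was 0.03.

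**Figure D4:**
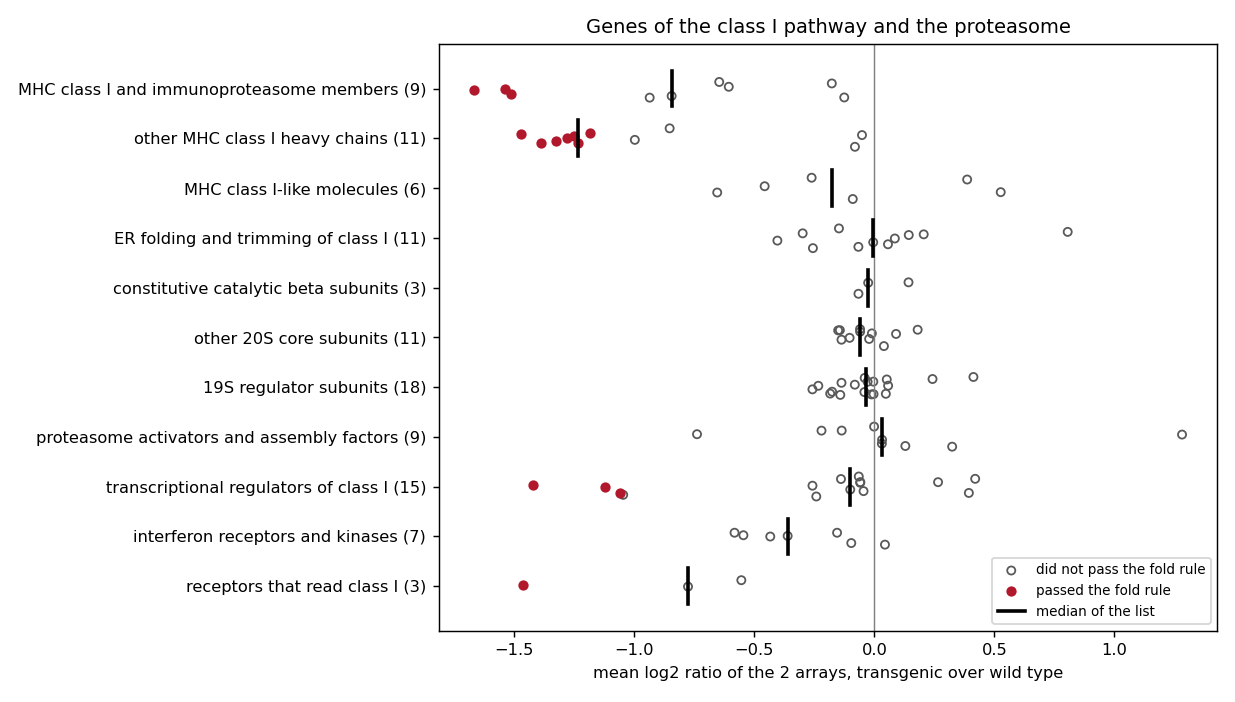
Mean log2 ratio of transgenic over wild type for each detected gene of 11 lists of the class I pathway and the proteasome, with list medians as bars and the number of detected genes in brackets. Calls lie in the members (3 of 9), the other heavy chains (7 of 11), the transcriptional regulators (3 of 15) and the receptors (1 of 3), and the medians of the proteasome lists lie near 0, although the activators and assembly factors run from -0.74 (Psme2) to 1.28 (Psme3).

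Genes for folding and trimming in the endoplasmic reticulum did not pass the rule (0 of 11 detected), with a median of -0.005. They ran from the folding sensor Uggt1 at -0.40 ± 0.07 to the chaperone calnexin (Canx) at 0.81 ± 0.35, whose other probes gave -0.15 and -0.07. Among regulators, Irf1, which binds class I and immunoproteasome promoters, had levels of 10.41 and 10.38 in the transgenic pool, against 11.41 and 11.50 in the wild-type pool. Its ratio was -1.06 ± 0.09, but its other probe gave -0.26. Ciita, the master regulator of MHC class II, was called lower at -1.42 ± 0.09, with a transgenic signal that cleared the background on 1 array of 2. The size of the Ciita ratio depended on the processing, at -3.72 with the processed signals. Of 15 detected regulators 3 were called lower and 0 higher, the median was -0.10, and the highest ratio was that of Irf2 at 0.42 ± 0.46. Nlrc5, the class I transactivator, was not detected by its probe.

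Of the 7 detected interferon receptor and kinase genes 0 passed the rule, with a median of -0.36, from Ifngr1 at -0.58 ± 0.96 to Tyk2 at 0.04 ± 0.07. Interferon gamma itself (Ifng) did not pass the detection rule, nor did the CD8 chain Cd8a. In the list of receptors that read class I, 3 genes were detected. Of these Pirb, an inhibitory receptor of B cells and myeloid cells, was called lower at -1.46 ± 0.37. The highest of the 3 was the myeloid inhibitory receptor Lilrb4a at -0.55 ± 0.01, with a transgenic signal that cleared the background on 1 array of 2. Lilrb4a was listed as a relative of such receptors and is not itself an established reader of class I. With the processed signals the order changed, and Lilrb4a stood at -2.06, below Pirb at -1.58.

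Leukocyte markers were lower in the transgenic pool beside the class I genes. Of 12 pan-leukocyte markers 12 were detected and 9 were called lower. The median was -1.40, or -2.08 with the processed ratios, and their summed processed signal was 7724 to 8053 in the transgenic pool, against 33480 to 33629 in the wild-type pool. Of 8 B and plasma cell markers 7 were detected and 6 called lower, with a median of -2.92 (-3.74 with the processed ratios) and sums of 3798 to 4070 in the transgenic pool against 52450 to 56296 in the wild-type pool. Of 12 macrophage and dendritic cell markers 11 were detected and 8 called lower, with a median of -1.38 (-1.82 with the processed ratios) and sums of 8060 to 8103 in the transgenic pool against 35191 to 35356 in the wild-type pool. Of 10 T and NK cell markers 8 were detected and 6 called lower, with a median of -1.51 (-2.60 with the processed ratios) and sums of 666 to 738 in the transgenic pool against 3351 to 3516 in the wild-type pool. Cd4, Gzma and Blk were not detected. Of the genes called lower, 4 of 9 pan-leukocyte, 4 of 6 B and plasma cell, 5 of 6 T and NK cell and 0 of 8 macrophage and dendritic cell markers did not clear the background in the transgenic pool on both arrays, so they passed detection through the wild-type pool, where they were high, which favours calls of lower. The summed signal of the 9 members was 210578 to 219189 in the transgenic pool, against 419947 to 479864 in the wild-type pool. B2m and H2-K1 made up 87.2% to 87.3% of it in the transgenic pool, against 89.7% to 90.4% in the wild-type pool. These are shares of probe signal and not of transcripts, since heights of different probes are not comparable. Of 6 basal markers 0 passed the rule, with a median of -0.45, and of 8 fibroblast markers 2 were called lower, with a median of -0.70. Of 8 endothelial markers 2 were detected and 0 passed. The part of these cells in the class I values was not tested.

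By place in the genome, 7 of the 10 members lie on chromosome 17. Psmb9, Tap1, Psmb8 and Tap2 follow each other there with no other coding gene between them in the RefSeq table, at log2 ratios of -1.54, -0.65, -1.67 and -0.61, so lower and less low values alternate. With the processed signals their means were -1.65, -1.58, -1.80 and -0.74, and the alternation was gone for Tap1. The run lies between class II genes, with H2-DMb1, named here for its position, before it at -2.18 ± 0.20. The shared stretch of 225 bases starts Psmb9 and Tap1 in opposite directions, and the Tap1 spot is the one in row 531.

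**Figure D5:**
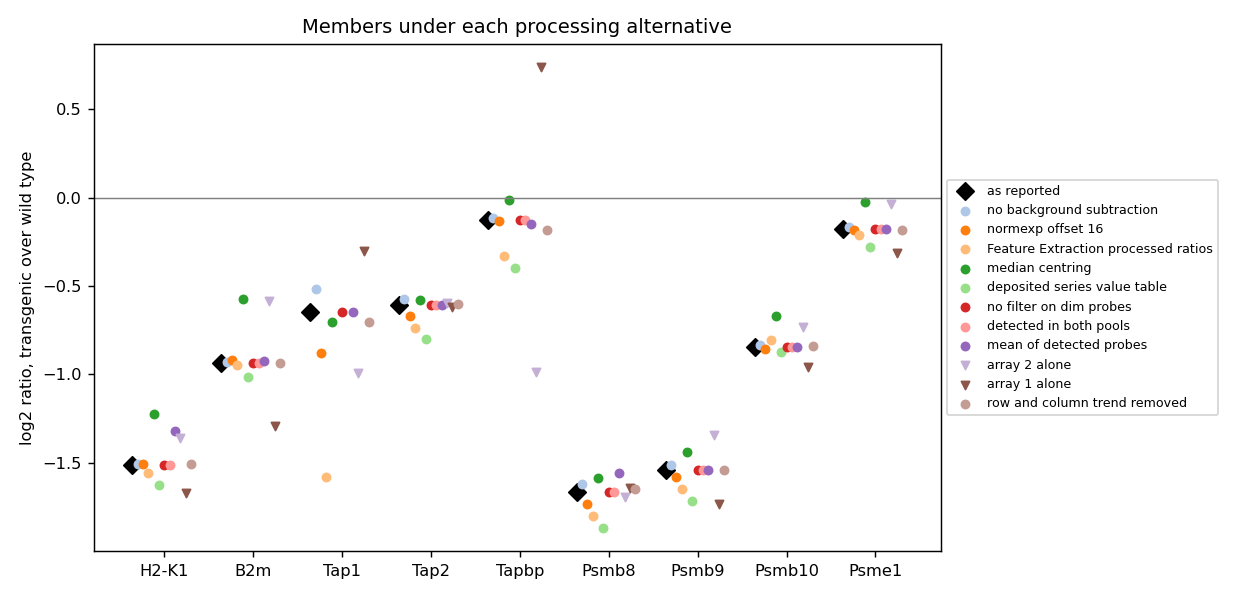
Log2 ratio of transgenic over wild type for each member as reported (black diamonds), under 8 alternatives of processing, detection or probe choice, under 1 chosen after seeing the data (row and column trend removed), and on each array alone (triangles). Tap1 runs from -1.58 to -0.30, and Tapbp lies on both sides of 0 on single arrays, at 0.74 and -0.99.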

How the data were processed

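Per the file headers, Agilent Feature Extraction 11.0.1.1 read the spots, with mm9 as genome build. For both dyes, the deposited scanner output holds unnormalized median intensities (spot and surrounding background) and processed intensities that are background-subtracted and dye-normalized with a log10 ratio of red over green. The deposited value table of the series is on a log2 scale with unstated direction. Its columns correlated at r = 1.000 with the processed ratios turned to transgenic over wild type, so it runs that way, and each column has a median of 0.

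The median intensities were put through limma 3.58.1 (R 4.3.3): normexp background correction at an offset of 50, then loess on every array by itself. Left out were 1639 control spots and spots marked as outliers. No spot was saturated (0 spots). Levels per pool come from the same values after Aquantile scaling. Detection required a probe to clear the background (the scanner's own mark) on both arrays in the same pool, for 1 pool or more. A gene was represented by its brightest detected probe. The raw signals of the members were 1.14 to 6063 times their local background, so the dimmest values depend on the processing. Each genotype being 1 pool limits what the ratios can show, which more arrays of the same pools would not change. Accessions were named through RefSeq's GRCm38.p6 gene table without versions, which matched 27808 of 41174 probes. No test was run, since each genotype is 1 pool. The members and lists were chosen with earlier results of these data known. Named genes are all members, every called gene of a pathway list, its highest and lowest gene, and fixed counterparts and regulators. The called genes of ventral prostate secretion are named as well. 11 alternatives were planned and 1 was added. The planned protein comparison was not made. The values of 1 listed regulator are not reported here.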

Additional observations from a re-analysis of the deposited data

How the results depend on the processing

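Each genotype is 1 pool, so the spread between mice is unknown, and position on the array, offset and dim signals limit single values. The count of members called lower, 3 as reported, was 1 under median centring, with Psmb9 the only one (2.91% of all genes called lower there), and 7 when a mean of 1.5-fold was enough (7.75%). It was between 3 and 4 on single arrays and under the other alternatives, and 0 members were higher under any. The median of the members, -0.84, was -0.67 under median centring, -0.88 with a normexp offset of 16, -0.89 with detection in both pools, -0.94 in the deposited value table and -0.95 with the processed ratios, and between -0.99 and -0.96 on single arrays. H2-K1 and Psmb8 were called lower in 11 of 12 alternatives and Psmb9 in 12, but not all alternatives could change these calls. A mean of 1.5-fold calls any gene that passes the main rule, and the changes of detection left the ratios of these genes as they were. The deposited value table holds the processed ratios with a shift for each array. The count of all genes called lower, 491, was 938 with the processed ratios, 267 with detection in both pools and 1077 at a mean of 1.5-fold, and between 589 and 599 on single arrays. The count called higher, 151, was 309, 99 under median centring and 472 at a mean of 1.5-fold, and between 271 and 450 on single arrays. Some of these shifts follow from the rules. A mean of 1.5-fold is a looser threshold, single arrays were called without a condition on the other array, and with detection in both pools fewer genes (12011) could be called. The cause of the other shifts was not tested. Removing the row and column trend, an alternative chosen after seeing the data, left 3 members lower. Tap1 ran from -1.58 to -0.30 over the 10 alternatives that measured it. No paired analysis was possible because both arrays carry the same 2 pools.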
